A study of Mus musculus with 20 samples.

Results

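Ribosome footprints of mouse embryonic stem cells (mESCs) with the eIF2αA/A knock-in (KI) were compared with those of wild-type eIF2α+/+ cells (WT) in medium with LIF and without the 2i inhibitors. The comparison was chosen by genotype, medium and nuclease, and took the 3 KI and 3 WT libraries digested with MNase in LIF, 6 of the 20 libraries of the series. Cells of both genotypes grew in serum-free medium with KnockOut serum replacement and 1000 U/mL LIF. The LIF groups had been without the MEK inhibitor PD0325901 and the GSK3 inhibitor CHIR99021 for 6 days, while the LIF/2i groups kept both. Cells were washed with cycloheximide before lysis, and footprints of 25 to 40 nucleotides were cut from the monosome peak. The study asked how eIF2α phosphorylation bears on naive pluripotency. The labels do not say how many lines or clones carried each genotype or whether replicates were separate cultures, so p-values measure the spread between these libraries, which may be technical. A footprint count follows both the amount of an mRNA and its translation, and mRNA levels were not analysed here.

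Translation initiation needs the factor eIF2, and stress kinases phosphorylate its alpha subunit at a serine, which lowers initiation on most mRNAs. A few mRNAs with upstream reading frames, among them that of the transcription factor ATF4, are then translated more, and ATF4 with its partner CHOP switches on genes for amino acid supply, tRNA charging and feedback. This program is called the integrated stress response. In A/A cells an alanine replaces that serine, so that eIF2α cannot be phosphorylated there. In mESCs the removal of 2i lets cells leave the naive ground state and drift towards formative pluripotency or towards extraembryonic fates.

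The 3 WT libraries held 2127850, 3543651 and 5461210 counts and the 3 KI libraries 6688983, 6560173 and 8894080, so that depth and genotype do not overlap and their effects cannot be told apart. Of 22416 gene names 12806 had enough counts to be tested. A principal component analysis of the 6 libraries separated the genotypes on its first axis, which held 47.1% of the variance. The second, with 24.6%, set KI replicate 1 apart at −50.9, against −1.5 to 22.6 in the other libraries. The third, with 15.2%, set WT replicate 2 apart at −37.3. Levels are given in CPM, counts scaled to a common library total with TMM factors, and differences as log2 fold changes, positive where KI was higher. Eif2s1, which encodes eIF2α, stood at 105, 117 and 101 CPM in WT and 133, 130.4 and 135 CPM in KI in replicates 1, 2 and 3. The KI values were all higher, and the difference did not pass the test (log2 fold change 0.30, SE 0.13, edgeR adjusted p = 0.13). A change of a single codon leaves no trace in a count per gene, so this level does not check the genotype.

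ATF4 and CHOP bind elements whose letters include TGATGNAA, and promoters of the stress response and amino acid genes described next show where these letters lie. The windows hold up to 36 bases on each side of the match and end at the annotated start of the gene at the latest, and the capitals mark the match, on either strand. Coordinates are those of the RefSeq table on GRCm38.p6, and each sequence is written along the strand of its gene. The first 6 belong to genes that fell in KI.
Nupr1, chr7:126625537-126625616, minus strand: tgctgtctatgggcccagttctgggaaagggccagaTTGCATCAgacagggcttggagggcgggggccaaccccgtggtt
Chac1, chr2:119351013-119351092, plus strand: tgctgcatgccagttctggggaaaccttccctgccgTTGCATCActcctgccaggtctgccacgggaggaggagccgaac
Vldlr, chr19:27216784-27216863, plus strand: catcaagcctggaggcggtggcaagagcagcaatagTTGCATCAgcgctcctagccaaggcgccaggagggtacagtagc
Jdp2, chr12:85599347-85599415, plus strand: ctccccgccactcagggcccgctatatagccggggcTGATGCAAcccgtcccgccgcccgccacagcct
Asns, chr6:7693210-7693268, minus strand: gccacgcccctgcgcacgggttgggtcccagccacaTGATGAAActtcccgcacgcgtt
Pycr1, chr11:120643808-120643887, minus strand: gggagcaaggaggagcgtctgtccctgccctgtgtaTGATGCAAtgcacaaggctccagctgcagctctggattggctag
The same letters stand in the windows of 7 genes of the same lists that did not pass the test, of which 3 are shown.
Atf3, chr1:191183400-191183479, minus strand: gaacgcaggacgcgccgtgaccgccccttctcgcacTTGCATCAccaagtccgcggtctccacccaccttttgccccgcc
Got1, chr19:43524664-43524743, minus strand: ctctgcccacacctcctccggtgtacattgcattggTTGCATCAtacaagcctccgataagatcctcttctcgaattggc
Tars, chr15:11399659-11399709, minus strand: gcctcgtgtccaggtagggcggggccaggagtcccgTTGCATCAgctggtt

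The motif was searched in both strands of the 300 bases from 250 before to 50 after each start, and 1304 of 32851 windows held it, 3.97%. Among tested genes with a window it was in 261 of 10081, 2.59%, in 27 of 616 genes that fell (4.38%), in 21 of 747 that rose (2.81%) and in 213 of 8718 that did neither (2.44%). Of 16 stress response regulators with a window 6 held it, 5 of them among the 10 that fell. It was in 3 of 16 amino acid synthesis genes, 2 of 15 amino acid transporters and 5 of 13 cytosolic tRNA synthetases, 4 of which were not called lower. Over the 4 lists 9 genes with the motif fell and 7 (Atf3, Got1, Slc7a7, Gars, Iars, Tars and Yars) did not pass. A match is a description and not a binding site or a cause. The start of Got1 and that of Tars carry the same 8 letters as Chac1, and their log2 fold changes were −0.04 and −0.07.

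Across all tested genes 1738 (13.6%) passed edgeR's quasi-likelihood test at a Benjamini-Hochberg adjusted p of 0.05. Footprints were higher in KI for 959 genes (7.49%) and lower for 779 (6.08%), and these are the shares against which each gene group is read. The median log2 fold change was −0.01 over all tested genes, 0.70 over those that rose and −0.94 over those that fell. Falls were the larger changes, with 363 genes lower by 2-fold or more and 85 by 4-fold or more, against 222 and 25 higher. All 3 KI libraries lay above all 3 WT libraries for 2309 genes (18%) and below them for 2243 (17.5%). Counts of calls moved with single libraries, from 722 without WT replicate 1 and 782 without KI replicate 3 to 1981 without KI replicate 1. They were 947 without WT replicate 2, 925 without WT replicate 3 and 1155 without KI replicate 2. With KI replicate 1 left out in both media 3404 genes passed.

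**Figure D1:**
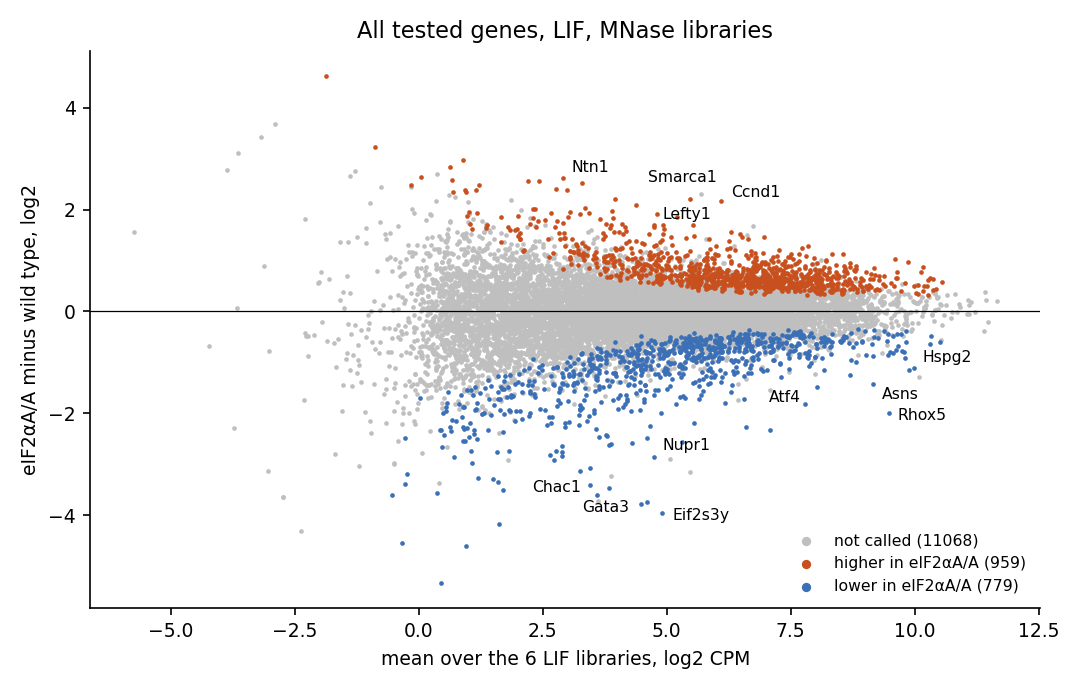
Difference between KI and WT in LIF for 12803 tested genes, with the log2 of the mean CPM over the 6 MNase libraries on the horizontal axis and the log2 fold change on the vertical axis. Each point is a gene, coloured where it passed edgeR's test (959 higher, 779 lower), and the coloured cloud reaches further down than up.

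Regulators of the integrated stress response were lower in KI. Of 19 tested genes for its transcription factors, targets and feedback regulators 11 fell and 0 rose, and their median was −1.33. In LIF/2i 1 rose and 4 fell, with a median of −0.24, where 13.9% of all tested genes were higher in KI and 11.5% lower, the shares for each later count in LIF/2i. Fgf21 had too few counts for the test. The number of members that fell was between 11 and 13 over the 6 fits that left out a library.

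Atf4 encodes the central transcription factor of the response. Its footprints, counted per gene, stood at 267, 189 and 277 CPM in WT and 81.9, 125 and 129.9 CPM in KI in replicates 1, 2 and 3. No KI library reached the lowest WT library. The fall was 1.12 on the log2 scale (SE 0.19, edgeR adjusted p = 0.0031). In KI replicate 1 the level was lower than in the other KI replicates. Atf5, a related factor that is likewise translated under stress, stood at 31.9, 31.2 and 42.02 CPM in WT and 5.08, 8.68 and 13.4 CPM in KI. The WT libraries were close together, KI spanned a wider range below them, and the difference was −1.94 (SE 0.32, edgeR adjusted p = 0.0029).

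Ddit3, which encodes CHOP, was at 13.7, 8.41 and 8.26 CPM in WT and 1.23, 2.89 and 2.79 CPM in KI. All 3 KI libraries were below all WT libraries (−2.08, SE 0.40, edgeR adjusted p = 0.0056). Trib3, a pseudokinase that restrains ATF4 and CHOP, was at 70.3, 45.6 and 74.6 CPM in WT and 16.00, 21.4 and 20.9 CPM in KI, again without overlap (−1.70, SE 0.28, edgeR adjusted p = 0.0031). Nupr1, a small stress-induced chromatin protein, was at 43.8, 37.7 and 59.6 CPM in WT and 2.77, 8.83 and 7.82 CPM in KI. Its WT libraries were all several times the highest KI library (−2.85, SE 0.41, edgeR adjusted p = 0.0017).

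Chac1, an enzyme that degrades glutathione, showed the largest fall of the group. It stood at 17.8, 14.6 and 27.96 CPM in WT and 2.92, 1.74 and 1.12 CPM in KI (−3.41, SE 0.46, edgeR adjusted p = 0.0014). The WT level was highest in replicate 3 and the KI level lowest there, and the groups did not overlap. Stc2, a secreted glycoprotein, was at 10.04, 8.68 and 16.7 CPM in WT and 1.69, 1.45 and 2.12 CPM in KI (−2.75, SE 0.44, edgeR adjusted p = 0.0028), and Vldlr, a lipoprotein receptor, at 3.19, 5.15 and 7.21 CPM in WT and 0.154, 0.579 and 0.782 CPM in KI (−3.30, SE 0.54, edgeR adjusted p = 0.0029). Both were low in every KI library. Jdp2, a bZIP repressor, was at 12.3, 7.32 and 10.02 CPM in WT and 2.15, 2.32 and 1.79 CPM in KI (−2.23, SE 0.38, edgeR adjusted p = 0.0037). Gdf15, a secreted stress cytokine, fell from a range of 6.39 to 7.75 CPM to one of 1.46 to 3.18 CPM (−1.57, adjusted p = 0.0089), and Eif4ebp1, an inhibitor of cap binding, by 1.07 (adjusted p = 0.0085). For these 11 genes leaving out any single library did not end the call.

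Some members did not pass the test, and in 2 of them KI replicate 1 stood apart. Ddit4, an inhibitor of mTORC1, was at 134, 151 and 129 CPM in WT and 112, 25.04 and 27.8 CPM in KI (−1.33, adjusted p = 0.11). Sesn2, a leucine sensor, was at 122, 117 and 134 CPM in WT and 142, 34.4 and 44.3 CPM in KI (−0.76, adjusted p = 0.27). KI replicate 1 lay just below the WT libraries for Ddit4 and above them for Sesn2, while KI replicates 2 and 3 lay far below them for both. Cebpb, a bZIP factor, was at −1.15 (adjusted p = 0.053) and Atf3 at −0.75 (adjusted p = 0.28). Ppp1r15a, the stress-induced eIF2α phosphatase subunit GADD34, was at 0.18 (adjusted p = 0.78), its constitutive relative Ppp1r15b at −0.43, Cebpg at −0.04 and Ero1l, an ER oxidase, at 0.32.

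**Figure D2:**
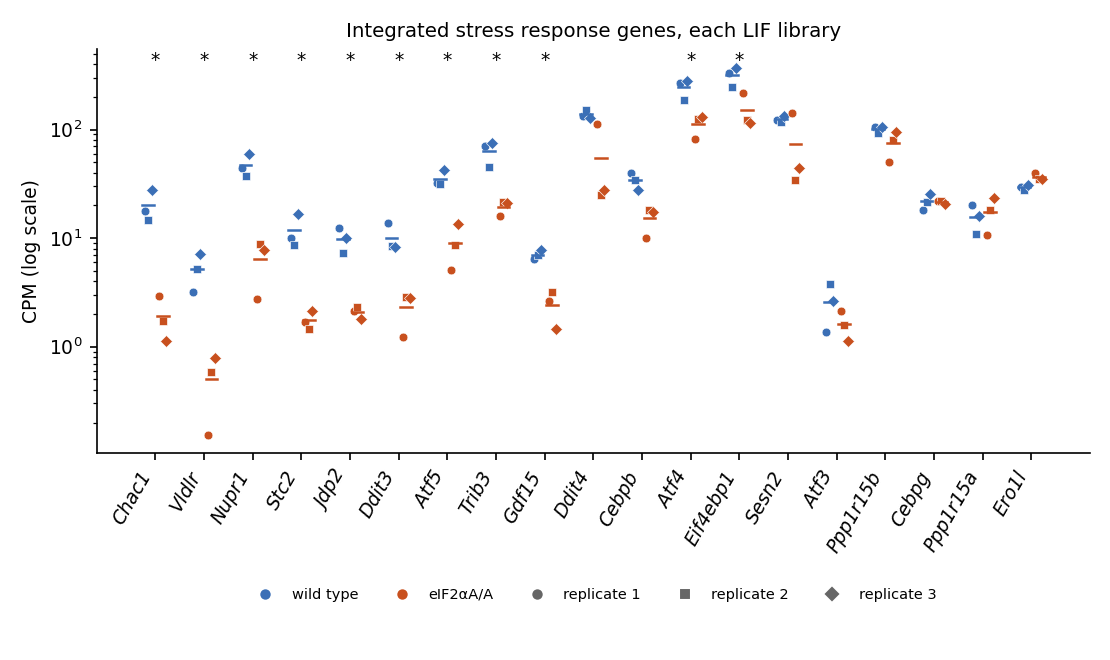
CPM on a log scale of the 19 tested stress response genes in the 3 WT and 3 KI MNase libraries in LIF, with a symbol per replicate number, a bar at each group mean and an asterisk at the 11 genes that passed. The KI points of Chac1, Nupr1 and Vldlr lie far below WT, and those of Ddit4 and Sesn2 split between replicate 1 and the others.

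The 4 RNase I libraries, 2 of each genotype, gave the same direction for the members that fell. Of the 11 genes that fell 10 were in that fit, and all 10 were lower in KI. Their log2 fold changes included −1.06 for Atf4, −3.29 for Chac1, −3.05 for Nupr1, −1.99 for Atf5 and −1.81 for Trib3. The median over the 17 members in the RNase I fit was −1.06.

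Genes that make amino acids held members that fell and members that rose. Of 21 genes for serine, glycine, asparagine, proline and cysteine synthesis and the mitochondrial folate cycle 6 fell and 2 rose, with a median of −0.57. In LIF/2i 1 fell and 3 rose, shares of the 21 that are near or below those over all genes, and the median was 0.04. Between 4 and 6 fell over the 6 fits that left out a library, and 4 remained without WT replicate 3.

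Asns, asparagine synthetase, was at 848, 658 and 1012 CPM in WT and 413, 265 and 255 CPM in KI. KI replicate 1 was the highest of the KI libraries and still below every WT library (−1.43, SE 0.20, edgeR adjusted p = 0.0014). Psat1, which makes phosphoserine, was at 397, 329 and 479 CPM in WT and 195, 171 and 175 CPM in KI (−1.16, SE 0.14, edgeR adjusted p = 0.001), and its 3 KI libraries lay within a narrow range. Pycr1, a mitochondrial enzyme of proline synthesis, was at 80.3, 58.05 and 91.8 CPM in WT and 24.5, 22.7 and 22.8 CPM in KI, the largest fall of this list (−1.72, SE 0.23, edgeR adjusted p = 0.0014).

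Of the other 2 serine synthesis enzymes, Psph fell by 1.22 on the log2 scale (adjusted p = 0.0099) and Phgdh by 1.57 (adjusted p = 0.015). Their calls were lost on leaving out WT 3 or KI 3 (adjusted p up to 0.054) for Psph and WT 2, WT 3 or KI 3 (adjusted p up to 0.07) for Phgdh. Gpt2, a mitochondrial alanine aminotransferase, fell by 1.18 (adjusted p = 0.0063). Mthfd2 and Shmt2 of the mitochondrial folate cycle were at −0.57 (adjusted p = 0.11) and −0.41 (adjusted p = 0.18), Aldh18a1 of proline synthesis at −0.68 and Cth of cysteine synthesis at −0.87, and none of these 4 passed.

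Plasma membrane amino acid transporters had 5 members that fell and 1 that rose of 21 tested, with a median of 0.03 with MNase and −0.19 with RNase I. Slc1a4, a carrier of alanine, serine and cysteine, was at 63.9, 48.3 and 89.9 CPM in WT and 18.3, 29.1 and 28.8 CPM in KI without overlap (−1.41, SE 0.25, edgeR adjusted p = 0.0041). Slc7a5, the light chain of the large neutral amino acid exchanger LAT1, was at 393, 341 and 449 CPM in WT and 244, 234 and 258 CPM in KI (−0.69, SE 0.12, edgeR adjusted p = 0.0045), and its heavy chain Slc3a2 fell by 0.38 (adjusted p = 0.044). Both chains were lower, the second by the smaller amount. The glutamine carrier Slc1a5 fell by 0.75 (adjusted p = 0.0074) and the glutamate carrier Slc1a1 by 2.32 (adjusted p = 0.0096), while the glutamate carrier Slc1a3 rose by 0.90 (adjusted p = 0.011). The calls were lost on leaving out any single library except KI 1 (adjusted p up to 0.20) for Slc3a2 and WT replicate 2 (adjusted p = 0.051) for Slc1a3.

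Cytosolic aminoacyl-tRNA synthetases, which charge tRNAs for translation, had 4 of 20 members lower and 2 higher, with a median of 0.04. With RNase I 17 of the 20 were below 0 and the median was −0.27, and of the 6 called genes Dars alone had the opposite sign (−0.07). In LIF/2i 11 were higher in KI and 0 lower, with a median of 0.38. Nars, for asparagine, was at 974, 809 and 1109 CPM in WT and 546, 528 and 575 CPM in KI, and its KI libraries lay within a narrow range below WT (−0.81, SE 0.12, edgeR adjusted p = 0.0017). Sars, for serine, was at 648, 644 and 712 CPM in WT and 352, 362 and 391 CPM in KI (−0.86, SE 0.13, edgeR adjusted p = 0.0018). Aars at −0.45 (adjusted p = 0.03) and Cars at −0.48 (adjusted p = 0.027) were lower as well. Hars and Dars were higher by 0.48 (adjusted p = 0.0091) and 0.48 (adjusted p = 0.02). Gars, for glycine, at 866, 721 and 985 CPM in WT and 333, 584 and 715 CPM in KI did not pass (−0.66, adjusted p = 0.12), with KI replicate 1 lowest. Calls were lost on leaving out any single library except WT 2 or KI 1 (adjusted p up to 0.15) for Aars, any single library except WT 2 or KI 3 (adjusted p up to 0.15) for Cars and WT 1, WT 2 or KI 3 (adjusted p up to 0.077) for Dars.

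For several of these genes the genotypes differed in another way in LIF than in LIF/2i. The log2 fold change of Nars was −0.81 in LIF and 0.28 in LIF/2i, a difference of −1.09 (SE 0.16) that passed the interaction test (edgeR adjusted p = 0.012). The difference between media was −1.84 for Asns (adjusted p = 0.012), which stood at 0.40 in LIF/2i. It was −1.45 for Psat1 (adjusted p = 0.0081), which stood at 0.29 there. Cars (−1.19, adjusted p = 0.012), Aars (−1.04, adjusted p = 0.02) and Yars (−1.0, adjusted p = 0.022) passed this test too. Over all genes 43 passed it (0.336%), with 30 of them lower in LIF. Single libraries moved that count between 10 and 98. KI replicate 1 deviated alike in the 2 media, with a correlation over genes of 0.563, and opposite to the other KI libraries (−0.508 to −0.431). KI replicates 2 and 3 correlated across media under different numbers (0.404 and 0.367) and under the same number (0.315 and 0.393). Deviations were taken from the mean of the 3 libraries of a group, so a library that stands apart pushes the others to the opposite side. The values of KI replicates 2 and 3 are partly set by this centering, and they do not show whether these libraries are paired across media. In WT same-numbered libraries correlated at 0.015 to 0.078. With the replicate number within genotype as a block 273 genes passed the interaction test, and with KI replicate 1 left out in both media 483.

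None of the 19 stress response regulators passed it without the block, 8 had an unadjusted p under 0.05, and DESeq2 called 3. With the block 5 passed, all lower in LIF: Nupr1 (adjusted p = 0.00102), Atf5 (0.00816), Atf4 (0.0329), Trib3 (0.0335) and Eif4ebp1 (0.0436). Without the block the differences between media were −3.04 for Nupr1 (adjusted p = 0.052), −2.22 for Atf5 (0.065), −1.75 for Trib3 (0.11), −0.91 for Atf4 (0.18) and −2.20 for Chac1 (0.22).

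**Figure D3:**
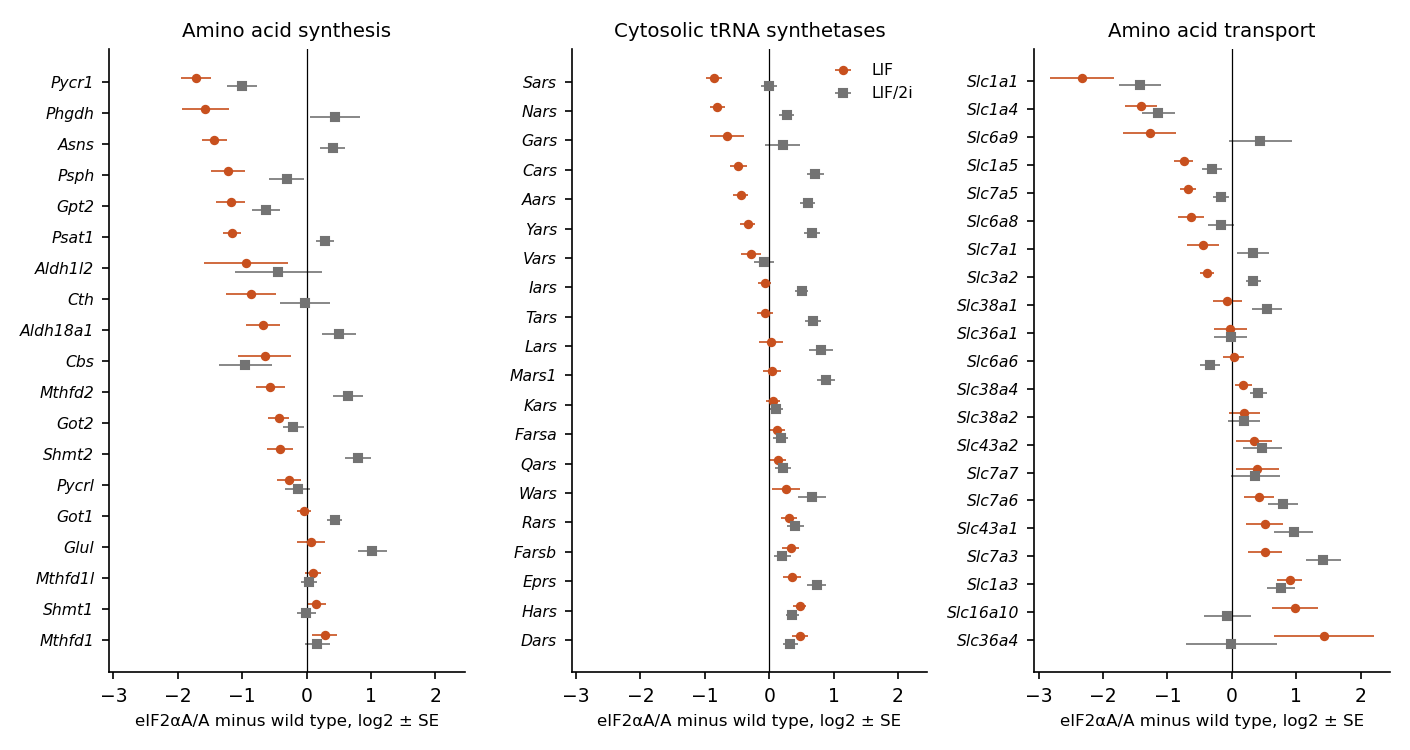
Log2 fold change of KI against WT with its standard error for 19 of the 21 amino acid synthesis genes, 20 cytosolic tRNA synthetases and 21 amino acid transporters, in LIF (circles) and in LIF/2i (squares). The circles of Asns, Psat1, Nars and Cars lie below 0 and their squares above it.

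The removal of the inhibitors was also compared within each genotype. Of the stress response regulators 9 were higher and 1 lower in LIF than in LIF/2i in WT, with a median of 0.87, and 1 was higher and 0 lower in KI, with a median of −0.03. Of the tRNA synthetases 11 were higher and 0 lower in WT, and 2 were higher and 1 lower in KI. Amino acid synthesis genes had 9 higher and 3 lower in WT and 1 and 3 in KI. The background for these counts is 9.97% higher and 11% lower over all genes in WT, and 8.4% and 10.4% in KI. The comparison in WT uses the same 3 WT LIF libraries as that of KI with WT in LIF, so the values are not independent of each other.

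Among 20 genes for eIF2, eIF2B, the eIF2α kinases and the phosphatases 3 rose and 0 fell, with a median of 0.15. These were Ppp1cb, a catalytic subunit of protein phosphatase 1 (0.42, adjusted p = 0.016), Eif2b3, the gamma subunit of the exchange factor (0.61, adjusted p = 0.019), and Eif2a, a separate initiation factor (0.48, adjusted p = 0.023). Leaving out a library ended these calls, namely WT replicate 1 (adjusted p = 0.063) for Ppp1cb, WT 1, WT 2 or WT 3 (adjusted p up to 0.067) for Eif2b3 and any single library except WT 3 or KI 2 (adjusted p up to 0.087) for Eif2a.

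Chaperones of the endoplasmic reticulum (ER) and targets of XBP1 and ATF6 had 4 members higher and 2 lower of 24. Herpud1, of ER-associated degradation, was at 25.6, 23.1 and 30.8 CPM in WT and 11.8, 10.6 and 12.7 CPM in KI (−1.18, SE 0.20, edgeR adjusted p = 0.0031). Xbp1, the transcription factor whose mRNA IRE1 splices, was at 219, 165 and 178 CPM in WT and 89.1, 103 and 96.7 CPM in KI (−0.95, SE 0.17, edgeR adjusted p = 0.0045). For both genes the highest KI library was below the lowest WT library. The members that rose were the chaperones Hspa13 (0.86), Hsp90b1 (0.57), Dnajb11 (0.56) and Calr (0.40), with adjusted p of 0.0049, 0.014, 0.023 and 0.024. Leaving out a library ended these calls, namely WT replicate 1 (adjusted p = 0.069) for Hsp90b1, any single library except KI 2 or KI 3 (adjusted p up to 0.077) for Dnajb11 and any single library except WT 3 or KI 3 (adjusted p up to 0.093) for Calr. Among 15 mitochondrial chaperones and proteases 2 rose and 1 fell, with the protease Yme1l1 at 0.78 (adjusted p = 0.0014).

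Markers of primitive endoderm were lower in KI. Of 17 tested markers 10 fell and 0 rose, with a median of −1.77. In LIF/2i 2 were higher and 4 lower, with a median of −0.51. None of the 17 passed the interaction test, and 2 did with the replicate number within genotype as a block. The summed level of all 23 markers was 3675 to 4669 CPM over the WT libraries and 2095 to 2261 CPM over the KI libraries. In a bulk library fewer cells of a type and less RNA per cell cannot be told apart. Foxa2, Afp, Ttr, Apoa1 and Thbd were among those with too few counts for the test. Between 6 and 8 members fell over the 6 fits that left out a library.

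Rhox5, an X-linked homeobox gene of extraembryonic tissue, made up a large part of that sum, at 1332, 1144 and 953 CPM in WT and 309.9, 293 and 254 CPM in KI. Every KI library was well below every WT library (−2.0, SE 0.20, edgeR adjusted p = 0.00063). The difference of Rhox5 between media was −0.14 (edgeR interaction adjusted p = 0.90). The GATA factor Gata6, which specifies primitive endoderm, was at 11.9, 12.2 and 13.7 CPM in WT and 3.38, 2.75 and 2.23 CPM in KI (−2.18, SE 0.30, edgeR adjusted p = 0.0014), and Sox17, which acts after it, at 10.5, 4.07 and 4.04 CPM in WT and 1.08, 0.868 and 0.670 CPM in KI (−2.74, SE 0.46, edgeR adjusted p = 0.0031). In WT replicate 1 Sox17 was more than in the other WT replicates, which were still above all KI libraries. Lama1, a laminin chain laid down by endoderm, was at 127, 130.5 and 97.8 CPM in WT and 41.5, 37.6 and 39.3 CPM in KI (−1.58, SE 0.21, edgeR adjusted p = 0.0013). Cubn, the endocytic receptor cubilin, was at 43.3, 60.8 and 32.2 CPM in WT and 1.38, 6.66 and 2.12 CPM in KI (−3.74, SE 0.74, edgeR adjusted p = 0.0067), and Pdgfra, a receptor tyrosine kinase of primitive endoderm, at 6.39, 10.3 and 6.15 CPM in WT and 1.08, 1.74 and 2.57 CPM in KI (−2.05, SE 0.43, edgeR adjusted p = 0.0085). KI values of Cubn spanned a several-fold range, all below WT. Cubn did not pass with DESeq2.

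The collagens Col4a1 and Col4a2, which share a promoter region, stood at 205, 305 and 169.5 CPM in WT and 42.2, 45.9 and 47.5 CPM in KI and at 159.7, 225 and 95.7 CPM in WT and 23.1, 39.9 and 36.4 CPM in KI. Neither gene's groups overlapped, and WT replicate 2 was highest in both. Their calls (−2.32 and −2.26, adjusted p = 0.043 and 0.043) were lost on leaving out any single library (adjusted p up to 0.13) for Col4a1 and any single library (adjusted p up to 0.14) for Col4a2. Srgn, a proteoglycan, fell by 2.83 (adjusted p = 0.048) and was listed at 0 in KI replicate 1, and Dab2, an endocytic adaptor, fell by 1.77 (adjusted p = 0.02). These calls were lost on leaving out any single library except KI 2 (adjusted p up to 0.16) for Srgn and WT 1, WT 2 or KI 3 (adjusted p up to 0.071) for Dab2. Gata4 at −0.87 (adjusted p = 0.28), Sox7 at −0.96 (adjusted p = 0.20), Apoe at −0.57 (adjusted p = 0.069) and Lamb1 at 0.14 did not pass.

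Trophoblast markers had 6 of 15 tested members lower and 0 higher, with a median of −1.02. In LIF/2i 1 of these markers was higher and 2 lower, with a median of 0.19. Their summed level was 871 to 1269.8 CPM in WT and 402 to 503 CPM in KI. Cdx2, Elf5 and Tpbpa had too few counts for the test, and the placental lactogen Prl3d1 was at 0 in all 6 libraries. Gata3, a trophectoderm factor, was at 40.2, 38.8 and 45.4 CPM in WT and 5.23, 2.32 and 1.68 CPM in KI (−3.78, SE 0.63, edgeR adjusted p = 0.0031), with KI far below WT in every library. The X-linked homeobox genes Rhox6 and Rhox9 were at 70.3, 78.4 and 55.9 CPM in WT and 9.23, 10.4 and 14.6 CPM in KI and at 39.2, 48.8 and 36.4 CPM in WT and 6.46, 6.66 and 8.82 CPM in KI. Neither overlapped, and they fell by 2.56 (SE 0.38) and 2.49 (SE 0.34), with edgeR adjusted p of 0.0018 and 0.0014. Rhox9 was at 0.59 in LIF/2i, and the 2 media differed (−3.09, adjusted p = 0.027). Rhox genes lie in a cluster of near-identical copies, so that reads may be split between them.

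Among the other trophoblast markers Hand1 fell by 1.69 (adjusted p = 0.015), the placental homeobox gene Esx1 by 1.82 (adjusted p = 0.026) and Tfap2a by 1.49 (adjusted p = 0.041). Their calls were lost on leaving out WT 1 or WT 2 (adjusted p up to 0.069) for Hand1, any single library except WT 3 (adjusted p up to 0.10) for Esx1 and any single library except KI 1 (adjusted p up to 0.15) for Tfap2a. With RNase I Tfap2a was at 0.41, the only one of the 6 with the opposite sign. Eomes (−1.02, adjusted p = 0.082) and Tfap2c (−0.74, adjusted p = 0.12) did not pass. The count of members that fell was 3 to 5 over the 6 fits that left out a library.

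Markers of other cells were mixed. Summed mesoderm markers were at 36.6 to 56.1 CPM in WT and 20.8 to 25.8 CPM in KI, with Hand1 as the only called member of 4 tested and Cer1 at 0 in all 6 libraries. Summed neuroectoderm markers were at 198 to 240 CPM in WT and 295 to 367 CPM in KI. Of 9 tested Olig2, a neural bHLH factor, was called, at 51.1, 30.7 and 27.1 CPM in WT and 56.9, 76.4 and 81.1 CPM in KI (1.01, adjusted p = 0.014), and its call was lost on leaving out WT 2, WT 3 or KI 3 (adjusted p up to 0.063). Summed fibroblast markers were at 233 to 1202 CPM in WT and 469.7 to 551 CPM in KI. Col1a1 stood at 63.9, 289.7 and 25.1 CPM in WT and Col1a2 at 39.2, 346 and 13.7 CPM, so WT replicate 2 alone was high in both. Col3a1, a further fibrillar collagen, went from 27.4, 17.6 and 6.86 CPM in WT to 1.23, 3.04 and 1.45 CPM in KI (−3.13, SE 0.58, edgeR adjusted p = 0.005), and Fstl1 rose by 1.14 (adjusted p = 0.039), a call lost on leaving out any single library except KI 1 (adjusted p up to 0.14). Germ cell markers summed to 895 to 1098 CPM in WT and 731 to 889 CPM in KI, and of 10 Prdm1, a repressor of the somatic program, fell, from 21.4, 16.00 and 20.9 CPM to 7.23, 9.70 and 4.13 CPM (−1.48, adjusted p = 0.0078). Genes listed for the 2-cell-like state summed to 139 to 151 CPM in WT and 88.3 to 102 CPM in KI, with Zscan4c, Zscan4f and Tdpoz4 at 0. Only 1 of the genes in this list had enough counts for the test, the general initiation factor gene Eif1a. The others had few counts or none, so the sum mostly follows Eif1a. It fell by 0.62 (edgeR adjusted p = 0.012), a call lost on leaving out WT replicate 1 (adjusted p = 0.054). A single tested gene does not describe this state. The part of such cells in the other results was not tested.

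Basement membrane genes, which include the collagens and Lama1 above, had 6 of 18 members lower and 0 higher. The others were Hspg2, the proteoglycan perlecan, at 1421, 1483 and 1285 CPM in WT and 844, 498 and 601 CPM in KI (−1.11, adjusted p = 0.016), Agrn (−0.96, adjusted p = 0.03) and Sparc (−0.62, adjusted p = 0.037). Perlecan was lower in every KI library, most in replicate 2. Lamc1 at −0.06 and Lama5 at −0.14, laminin chains of many tissues, did not pass, so the list held genes that fell beside genes near 0, and its median was −0.10. With RNase I all 18 were below 0 and the median was −0.48. Calls were lost on leaving out any single library except WT 3 or KI 1 (adjusted p up to 0.065) for Hspg2, any single library except KI 1 (adjusted p up to 0.12) for Agrn and any single library except KI 1 (adjusted p up to 0.12) for Sparc, and between 1 and 5 members fell over the 6 fits that left out a library, 1 of them without WT replicate 1.

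**Figure D4:**
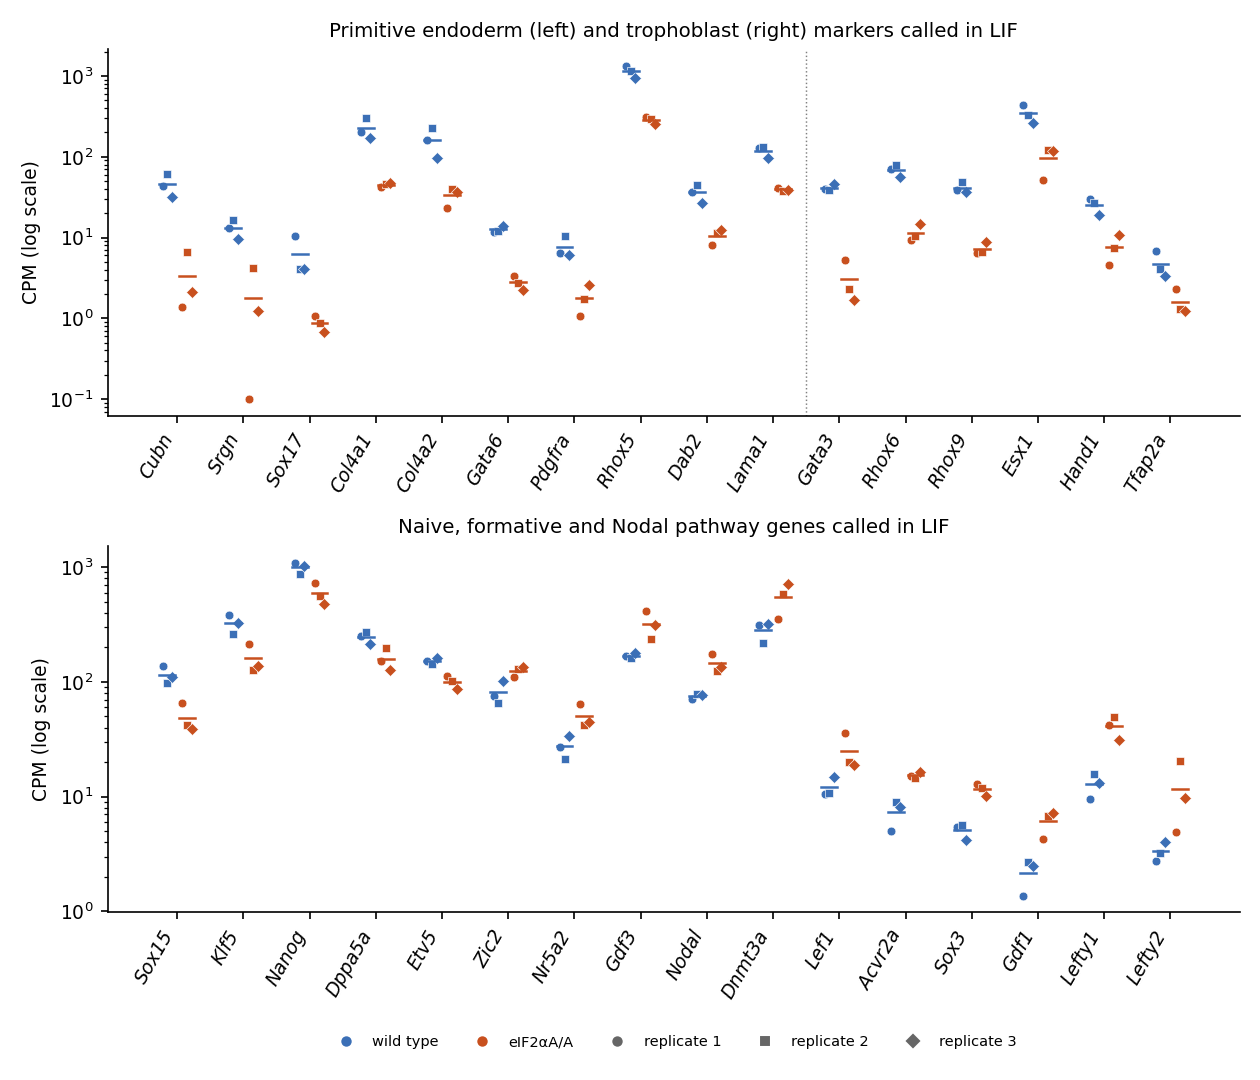
CPM on a log scale, per MNase library in LIF, of the 10 primitive endoderm and 6 trophoblast markers that fell (upper panel) and of the 16 naive, formative and Nodal pathway genes that passed (lower panel), with the bar at each group mean and a value of 0 drawn at 0.1 CPM. The endoderm and trophoblast markers lie below WT in all KI libraries, and the pluripotency genes lie on both sides.

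Of 20 naive pluripotency genes 4 fell and 1 rose, with a median of −0.23. With RNase I the median was 0.02 and 10 of the 20 were below 0. Nanog, the homeobox factor of naive cells, was at 1095, 867 and 1028 CPM in WT and 731, 561 and 475 CPM in KI. The groups did not overlap, KI replicate 1 was nearest to WT, and Nanog fell by 0.76 (SE 0.15, edgeR adjusted p = 0.0062). Klf5, a Krüppel-like factor of the naive network, was at 383, 263 and 325 CPM in WT and 214, 127 and 138 CPM in KI (−1.02, SE 0.19, edgeR adjusted p = 0.0058), again with KI replicate 1 highest of the KI libraries. Sox15 fell by 1.23 (adjusted p = 0.014) and Dppa5a, an RNA-binding marker of stem cells, by 0.63 (adjusted p = 0.02), while the nuclear receptor Nr5a2 rose by 0.85 (adjusted p = 0.035). These 3 calls were lost on leaving out WT 1, KI 2 or KI 3 (adjusted p up to 0.071) for Sox15, WT 1, WT 2 or KI 3 (adjusted p up to 0.082) for Dppa5a and any single library except WT 3 or KI 2 (adjusted p up to 0.13) for Nr5a2. Dppa5a stood at 0.26 with RNase I, the opposite sign.

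Other naive factors did not pass, with values of −0.14 for Esrrb, −0.23 for Klf4, −0.23 for Klf2, −0.35 for Zfp42 (REX1), −0.47 for Tbx3 and −0.61 for Tfcp2l1 (adjusted p = 0.066). Of 17 genes listed under core pluripotency 2 rose and 2 fell. Pou5f1, which encodes OCT4, was at 898, 629 and 869 CPM in WT and 758, 726 and 892 CPM in KI, and its groups overlapped (log2 fold change −0.01, SE 0.14). Its partner Sox2 was at 1029, 684 and 934 CPM in WT and 673, 655 and 558 CPM in KI (−0.49, adjusted p = 0.037), with KI just below the lowest WT library. The other listed gene that fell was Tead4 (−0.91, adjusted p = 0.029), a TEAD transcription factor that is better known from trophectoderm. Rif1, a telomere and replication timing protein, and Zfp281, a zinc finger factor, rose by 0.51 and 0.40 (adjusted p = 0.039 and 0.044). All 4 calls lay near the threshold, and these genes kept their direction whichever library was left out. For Sox2 the call was lost on leaving out any single library except WT 2 or KI 1 (adjusted p up to 0.19). For Tead4 and Zfp281 it was lost on leaving out any single library except KI 1 (adjusted p up to 0.097 and 0.17). For Rif1 it was lost on leaving out any single library (adjusted p up to 0.13). Neither Nanog nor Klf5 passed the interaction test (adjusted p = 0.21 and 0.20), although Klf5 did with the replicate number within genotype as a block (adjusted p = 0.0266), and in LIF/2i their values were −0.09 and −0.13. Among the genes listed under core pluripotency Lin28a, not called in LIF, passed the interaction test (−3.46, edgeR adjusted p = 0.0092). With that block its adjusted p was 0.00087.

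Among 20 tested genes of formative and primed cells 7 rose and 1 fell, with a median of 0.52. In LIF/2i 0 were higher and 4 lower, with a median of −0.19. Nodal, a ligand that supports formative cells, was at 71.2, 78.9 and 76.7 CPM in WT and 176, 125 and 135 CPM in KI. Its 3 WT libraries were close together, and all 3 KI libraries were above them (0.94, SE 0.14, edgeR adjusted p = 0.0021). Sox3, a SoxB1 factor of epiblast, was at 5.48, 5.70 and 4.22 CPM in WT and 12.8, 11.9 and 10.1 CPM in KI (1.19, SE 0.28, edgeR adjusted p = 0.016), and Lef1, a nuclear partner of beta-catenin, at 10.5, 10.8 and 14.8 CPM in WT and 36.2, 19.97 and 18.99 CPM in KI (1.03, SE 0.30, edgeR adjusted p = 0.037). Both were higher in every KI library in LIF and lower in KI in LIF/2i (−1.32 and −1.62), and the media differed, by 2.50 (SE 0.39, adjusted p = 0.014) and 2.65 (SE 0.42, adjusted p = 0.015).

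Dnmt3a, a de novo DNA methyltransferase, was at 312, 219.7 and 319 CPM in WT and 352, 581 and 710.2 CPM in KI (0.95, adjusted p = 0.032), and its rise was largest in KI replicate 3 and smallest in replicate 1. The zinc finger factor Zic2 rose by 0.62 (adjusted p = 0.046), and the ETS factor Etv5 fell by 0.60 (adjusted p = 0.028). Otx2 at −0.65 (adjusted p = 0.31), Pou3f1 (OCT6) at 0.87 (adjusted p = 0.059) and Dnmt3b at 0.29 did not pass. Calls were lost on leaving out WT replicate 3 (adjusted p = 0.074) for Sox3, any single library except KI 2 or KI 3 (adjusted p up to 0.12) for Lef1, any single library except KI 1 (adjusted p up to 0.14) for Dnmt3a, any single library except WT 3 or KI 1 (adjusted p up to 0.16) for Zic2 and any single library except KI 1 (adjusted p up to 0.12) for Etv5. From 2 to 6 members rose over the 6 fits that left out a library, with 2 in the fit without WT replicate 1.

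Nodal and activin pathway genes had 6 of 20 members higher and 0 lower, with a median of 0.07. This list shares members with that of formative and primed cells, Nodal and Lefty2 among them, so their counts are not independent of each other. Gdf3, a ligand of the Nodal type, was at 167, 161 and 177 CPM in WT and 414, 234 and 313 CPM in KI without overlap (0.93, SE 0.19, edgeR adjusted p = 0.0082), and its value in LIF/2i was also 0.93. Lefty1 and Lefty2, secreted inhibitors that Nodal signalling induces, were at 9.58, 15.7 and 13.2 CPM in WT and 42.5, 49.2 and 31.4 CPM in KI and at 2.74, 3.25 and 4.04 CPM in WT and 4.92, 20.3 and 9.72 CPM in KI. All KI values were above all WT values for both, with differences of 1.65 (SE 0.41, adjusted p = 0.02) and 1.74 (SE 0.54, adjusted p = 0.048). Gdf1, a partner ligand of Nodal, rose by 1.42 (adjusted p = 0.029) and the receptor Acvr2a by 1.03 (adjusted p = 0.047). The co-receptor Tdgf1 was at 0.00. Leaving out a library ended these calls, namely WT 1, WT 3 or KI 2 (adjusted p up to 0.086) for Lefty1, any single library except KI 1 (adjusted p up to 0.18) for Lefty2, any single library except KI 1 (adjusted p up to 0.11) for Gdf1 and any single library (adjusted p up to 0.15) for Acvr2a.

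BMP pathway genes had 3 of 17 members lower and 0 higher. Id2, an inhibitor of bHLH factors that BMP signalling induces, was at 21.9, 28.2 and 20.7 CPM in WT and 5.23, 4.78 and 3.02 CPM in KI (−2.45, SE 0.47, edgeR adjusted p = 0.0059). Its KI libraries were all far below WT. Id4 fell by 1.67 (adjusted p = 0.022) and the inhibitory SMAD gene Smad6 by 1.52 (adjusted p = 0.032), calls lost on leaving out any single library except WT 3 or KI 1 (adjusted p up to 0.094) for Id4 and any single library except KI 3 (adjusted p up to 0.12) for Smad6. Bmp4, a ligand, was at −1.14 (adjusted p = 0.088) in LIF and 3.23 in LIF/2i.

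Of 23 genes for FGF signalling and MEK/ERK targets 2 rose and 3 fell. Spry4, not called in LIF, was the only one of the 23 to pass the interaction test (−3.745, edgeR adjusted p = 0.012). With the replicate number within genotype as a block its adjusted p was 0.0176. Ccnd1, cyclin D1, was at 21.9, 16.00 and 35.9 CPM in WT and 107, 108 and 123 CPM in KI, with all KI libraries several times above WT (2.17, SE 0.28, edgeR adjusted p = 0.0011), and its value in LIF/2i was 2.15. The ligand Fgf17 rose by 2.01 (adjusted p = 0.01). The receptor Fgfr2 was at 54.3, 66.5 and 62.1 CPM in WT and 17.1, 21.6 and 19.7 CPM in KI, without overlap (−1.65, adjusted p = 0.042), Phlda1 fell by 1.23 (adjusted p = 0.012), and Etv5 was described above. The test was no longer passed on leaving out any single library (adjusted p up to 0.12) for Fgfr2 and WT replicate 2 (adjusted p = 0.055) for Phlda1, and Fgfr2 did not pass with DESeq2. Among 16 WNT pathway genes Lef1 rose, and the TCF factors Tcf7l2 and Tcf7l1 and the inhibitor Apcdd1 fell by 1.26, 1.04 and 1.27 (adjusted p = 0.0036, 0.017 and 0.049). The last 2 calls were lost on leaving out WT 2 or KI 2 (adjusted p up to 0.065) for Tcf7l1 and any single library except WT 2 (adjusted p up to 0.18) for Apcdd1.

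YAP and TEAD pathway and serum response genes had 6 of 24 members lower and 1 higher, with a median of −0.21. Yap1, the coactivator itself, was at 382, 366 and 339.5 CPM in WT and 264, 239.8 and 239.7 CPM in KI (−0.55, SE 0.12, edgeR adjusted p = 0.011), and its paralog Wwtr1, which encodes TAZ, fell by 0.80 (adjusted p = 0.023). For Yap1 every KI library was below every WT library. The pathway's inhibitors Amotl2 (−0.89, adjusted p = 0.014) and Lats2 (−0.90, adjusted p = 0.035) and the actin-binding Cnn3 (−1.15, adjusted p = 0.0077) were lower too. The classical targets Ccn1 and Ccn2, at −0.84 and −0.45, did not pass. Actb fell by 0.79 with MNase and was at −0.01 with RNase I, and Actg2 rose by 0.90 with MNase and was at −0.29 with RNase I, so these actin genes, which have close relatives, had no shared direction. The test was no longer passed on leaving out WT replicate 1 (adjusted p = 0.06) for Yap1, any single library except WT 2 or KI 2 (adjusted p up to 0.10) for Wwtr1, KI 2 or KI 3 (adjusted p up to 0.053) for Amotl2, any single library except KI 1 (adjusted p up to 0.12) for Lats2 and any single library except WT 2 or KI 1 (adjusted p up to 0.10) for Actg2. Among 22 cadherins and epithelial or mesenchymal genes the claudins Cldn3 (−1.37, adjusted p = 0.034) and Cldn4 (−0.95, adjusted p = 0.035) fell and 0 rose, and these calls were lost on leaving out any single library (adjusted p up to 0.15) for Cldn3 and any single library except KI 2 (adjusted p up to 0.10) for Cldn4.

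Genes of DNA replication and of mitosis had members that rose. Of 25 S phase genes 7 rose and 0 fell, with a median of 0.15, among them the flap endonuclease Fen1 (0.62, adjusted p = 0.0049) and the helicase subunit Mcm6 (0.62, adjusted p = 0.01). With RNase I the median was −0.02 and Mcm6 stood at 0.04. Of 24 G2 and M phase genes 5 rose and 0 fell, with topoisomerase Top2a at 0.88 (adjusted p = 0.0027) and the kinesin Kif20b at 0.67 (adjusted p = 0.0053). From 2 to 6 S phase genes rose over the 6 fits that left out a library, with 2 without WT replicate 1, WT replicate 2 or KI replicate 3, and from 2 to 4 G2 and M phase genes, with 2 without WT replicate 1, 2 or 3 or KI replicate 3.

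Targets of p53, the transcription factor that answers DNA damage, split the KI libraries. None of 21 tested genes passed edgeR's test with all libraries, although 3 were lower and 1 higher at an unadjusted p under 0.05, and DESeq2 called 0 as well. Without KI replicate 1, 9 of the 21 were lower in KI and 0 higher, and in the other fits that left out a library 0 passed. Mdm2, the ligase that limits p53, was at 188, 207 and 192 CPM in WT and 326, 126 and 152 CPM in KI. The cyclin gene Ccng1 was at 104, 174 and 118 CPM in WT and 203, 64.99 and 58.4 CPM in KI, the Akt inhibitor Phlda3 at 66.6, 78.4 and 54.2 CPM in WT and 106, 23.4 and 29.3 CPM in KI and the kinase Plk2 at 82.1, 130.5 and 69.98 CPM in WT and 208, 51.2 and 61.4 CPM in KI. In each of these 4 genes KI replicate 1 lay above all WT libraries and KI replicates 2 and 3 below them. The proapoptotic Bbc3, at 38.3, 48.6 and 49.6 CPM in WT and 42.2, 11.7 and 15.97 CPM in KI, had KI replicate 1 within the WT range. Trp53 itself was at 267, 236 and 287 CPM in WT and 331, 276 and 360.3 CPM in KI (0.29, adjusted p = 0.16), and KI replicate 1 lay between the other KI replicates there. Ccng1 was split in the same way in LIF/2i, at 207 CPM in KI replicate 1 and 74.9 and 66.1 CPM in the others, while Mdm2 there was at 169.6, 163 and 152 CPM. Sesn2, named above, is also a p53 target.

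Zinc finger genes formed the largest set that rose, a grouping by name that was made after the values were seen. Of 336 tested genes whose symbols begin with Zfp 57 rose and 3 fell, and 248 had a value above 0. The median of these genes was 0.43, against −0.01 over all genes, and it was 0.48 in LIF/2i and 0.27 with RNase I. For 126 of them all KI libraries lay above all WT libraries, and for 19 below. Most are KRAB-type or other C2H2 zinc finger proteins, many of them in clusters of similar copies on which reads can be split. Zfp266 was at 44.3, 41.8 and 46.9 CPM in WT and 94.2, 101 and 116 CPM in KI (1.22, SE 0.16, edgeR adjusted p = 0.0011), Zfp280c at 19.6, 31.2 and 22.9 CPM in WT and 70.3, 62.4 and 74.5 CPM in KI (1.48, SE 0.21, edgeR adjusted p = 0.0017) and Zfp941 at 5.48, 5.70 and 8.26 CPM in WT and 24.00, 24.6 and 22.8 CPM in KI (1.83, SE 0.28, edgeR adjusted p = 0.0022). In each the lowest KI library was well above the highest WT library. Zfp638, which silences unintegrated retroviral DNA, was at 195, 192 and 204 CPM in WT and 475, 311 and 396 CPM in KI (1.0, SE 0.14, edgeR adjusted p = 0.0017). Zfp414 was among the 3 that fell, at 59.3, 48.01 and 56.3 CPM in WT and 27.2, 29.2 and 18.9 CPM in KI (−1.12, SE 0.22, edgeR adjusted p = 0.0066). All 60 were in the RNase I fit, and 59 had the same sign there. The number that rose was 23 without KI replicate 3 and 26, 35 and 32 without WT replicates 1, 2 and 3, and it was 56 and 46 without KI replicates 1 and 2.

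Single genes with the largest changes belonged to many functions. Ccnd1, the chromatin remodeller Smarca1 and Rragb, a GTPase that reports amino acids to mTORC1, were among the largest rises. Smarca1 was at 10.95, 20.1 and 15.5 CPM in WT and 65.1, 74.8 and 78.4 CPM in KI (2.21, SE 0.36, edgeR adjusted p = 0.0029), and Rragb at 8.67, 7.87 and 7.39 CPM in WT and 26.6, 38.4 and 35.96 CPM in KI (2.09, SE 0.44, edgeR adjusted p = 0.0093), without overlap in either. Ntn1, a guidance cue, was at 1.83, 1.63 and 2.64 CPM in WT and 9.69, 11.4 and 18.2 CPM in KI (2.62, adjusted p = 0.047), a call lost on leaving out any single library (adjusted p up to 0.14). Further rises were those of the potassium channel Kcnj3 (2.40), Nlrp4c (2.39), the chaperone Clgn (1.97) and the protease Mmp25 (1.94). Nlrp4c lost its call on leaving out WT 1 or WT 2 (adjusted p up to 0.057) and Clgn on leaving out WT replicate 2 (adjusted p = 0.059). Cpsf2, a subunit of the mRNA cleavage complex, was at 88.1, 93.9 and 94.4 CPM in WT and 211, 169 and 199 CPM in KI, and it was the only rise among the 10 genes named for the smallest p-values (1.07, SE 0.12, edgeR adjusted p = 0.00063).

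Myo7a, an unconventional myosin, had the smallest p-value of all genes. It was at 31.5, 28.2 and 19.7 CPM in WT and 1.85, 2.46 and 2.68 CPM in KI (−3.47, SE 0.31, edgeR adjusted p = 0.00051), and its value in LIF/2i was −5.10. Ubap1l was at 26.5, 13.8 and 26.6 CPM in WT and 1.38, 1.74 and 2.23 CPM in KI (−3.61, SE 0.38, edgeR adjusted p = 0.00063), and the guidance protein Sema5a at 35.1, 41.2 and 49.4 CPM in WT and 6.46, 9.99 and 9.94 CPM in KI (−2.25, SE 0.23, edgeR adjusted p = 0.00063). All 3 genes had every KI library far below WT. The aldehyde oxidase Aox3 (−3.06), the melanosome linker Mlph (−2.91), the iron exporter Slc40a1 (−2.65) and Pramel6 (−2.76) fell as well. Ptges, a prostaglandin E synthase, fell by 1.91 (adjusted p = 0.00063) in LIF and was at 0.04 in LIF/2i, a difference that passed the interaction test (−1.96, adjusted p = 0.012).

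Y-linked genes differed between libraries of one genotype. Eif2s3y, the Y-linked copy of the eIF2 gamma subunit, was at 57.9, 24.4 and 85.5 CPM in WT and 9.39, 0.724 and 1.12 CPM in KI, and the helicase gene Ddx3y at 104, 28.2 and 107 CPM in WT and 21.8, 1.45 and 4.13 CPM in KI. Both were lowest in KI replicates 2 and 3, intermediate in KI replicate 1 and, for WT, lowest in replicate 2. Eif2s3y was called (−3.96, adjusted p = 0.047), a call lost on leaving out any single library (adjusted p up to 0.17), and the other 6 tested Y-linked genes did not pass. All 7 tested Y-linked genes had values below 0, with a median of −3.23, and 6 had an unadjusted edgeR p under 0.05. Of 7 X-linked partners of Y-linked genes 3 rose, Usp9x by 0.41, Ddx3x by 0.45 and Uba1 by 0.33 (adjusted p = 0.016, 0.026 and 0.035), and all 7 lay higher in every KI library. With RNase I Usp9x and Uba1 had the opposite sign (−0.03 and −0.10) and Ddx3x was at 0.36. Those calls were lost on leaving out WT 1 or KI 3 (adjusted p up to 0.071) for Usp9x, any single library except WT 1 or KI 2 (adjusted p up to 0.084) for Ddx3x and any single library except KI 1 or KI 2 (adjusted p up to 0.15) for Uba1. The part of the Y-linked difference in the other results was not tested.

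Direction was checked with the RNase I libraries over all genes. Of 946 genes that rose with MNase and were in the RNase I fit 889 had a positive value there (94.0%), and of 748 that fell 696 had a negative one (93.0%). Over all 12046 genes in both fits 8936 shared the sign (74.2%). Over the genes that rose and fell with MNase the RNase I medians were 0.36 and −0.72, against 0.70 and −0.94 with MNase. These genes were chosen by their MNase values, which favours larger values there, so the medians do not compare effect sizes between nucleases. The RNase I fit itself, with 2 libraries a side, called 14 of 12095 genes (0.116%), and 1607 had an unadjusted p under 0.05. All 14 were lower in KI and were called with MNase as well. They were Lama1, Rhox5, Col4a2, Sema5a, Cubn, Aox3, Gjb5, Mex3b, Khdc3, Tfpi, GM20509 and 3 genes of mitochondrial metabolism, Idh2, Acaa2 and Pck2. Pck2, mitochondrial phosphoenolpyruvate carboxykinase, was at 206 and 143 CPM in WT and 31.7 and 45.9 CPM in KI with RNase I, and Lama1 at 265 and 227 CPM in WT and 63.8 and 49.3 CPM in KI.

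**Figure D5:**
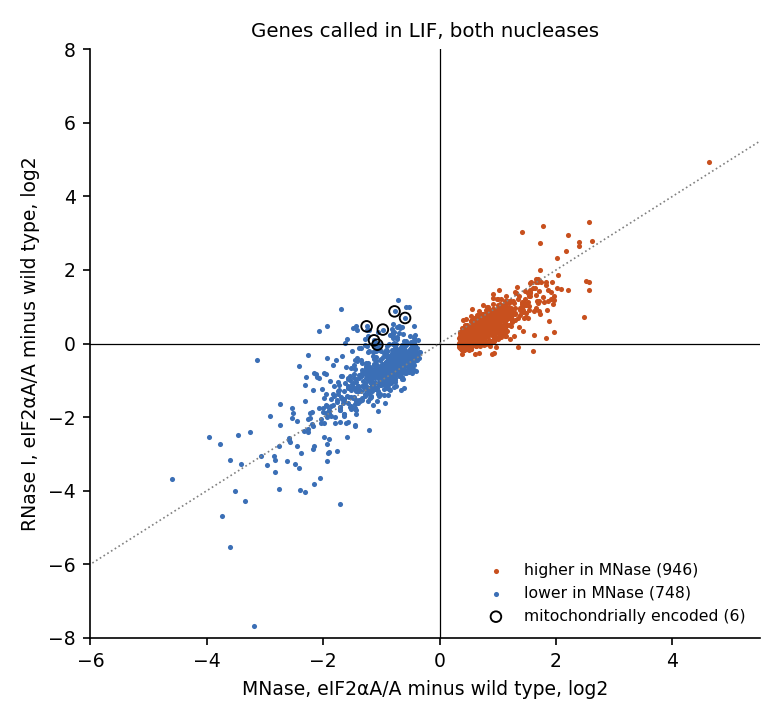
Log2 fold change of KI against WT in LIF with MNase (horizontal axis) and with RNase I (vertical axis) for the 1694 genes called with MNase that were in both fits, with the mitochondrially encoded genes ringed and a dotted line at equal values. Most points lie in the 2 quadrants of equal sign, and 5 of the 6 ringed genes lie left of 0 and above it.

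Some gene groups had different signs with the 2 nucleases. Of 13 mitochondrially encoded genes 6 fell with MNase and 0 rose, with a median of −0.77, while the median with RNase I was 0.70. With MNase in LIF/2i 10 were lower in KI and 0 higher, with a median of −1.14. The cytochrome oxidase subunit gene mt-Co1 stood at 468, 721 and 579 CPM in WT and 209.9, 300.0 and 232 CPM in KI with MNase (−1.25, adjusted p = 0.0016), lower in every KI library, and its RNase I value was 0.47. For mt-Nd1, mt-Nd5 and mt-Nd6 of complex I the MNase values were −0.59, −0.77 and −0.98 and the RNase I values 0.70, 0.87 and 0.38. Calls were lost on leaving out WT 2, KI 1 or KI 3 (adjusted p up to 0.12) for mt-Co2, WT replicate 2 (adjusted p = 0.068) for mt-Nd1 and any single library except WT 1 or WT 3 (adjusted p up to 0.16) for mt-Nd5. Without WT replicate 2, 3 genes fell and the median was −0.43. Of the 6 called genes mt-Co3 alone kept its sign with RNase I (−1.07 and −0.03), and the difference between nucleases was not tested. Genes whose symbols begin with Rpl or Rps and a digit were also split. Most encode ribosomal proteins, many of which have processed gene copies, but the called Rps genes include Rps6kc1, which does not. Of 6 called Rpl genes 1 and of 6 called Rps genes 2 shared the sign. The medians over the tested genes of each group were −0.12 and −0.26 with MNase and 0.44 and 0.29 with RNase I. Of the called genes whose symbols begin with H and a digit, histones among them, 14 were in the RNase I fit, and 8 of these shared the sign. Fth1, the ferritin heavy chain, was likewise at −0.71 with MNase and 1.17 with RNase I.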

How the data were processed

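Ribosome footprints were counted per gene in 20 libraries, of which the 12 digested with MNase entered the fit and the 4 LIF libraries digested with RNase I gave a check of direction. The deposited table holds whole-number counts per gene symbol, with no normalization. The submitters' processing notes list cutadapt 3.4, Bowtie 1.3.0 and UMI-tools 1.0.1, while the sources used here name no genome build for the counts. Libraries carried molecular identifiers, per the labels' protocols, and reads shared by near-identical genes may have been split or dropped. Symbols were given mouse spelling through RefSeq, which matched 21755 of 22416 names.

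Counts were tested in R 4.3.3 with edgeR 4.0.16 (filterByExpr, TMM, robust quasi-likelihood fit of the 4 groups of genotype and medium, biological coefficient of variation 0.21), with Benjamini-Hochberg adjustment over all tested genes at 0.05. DESeq2 1.42.0 and limma 3.58.1 (voom), other scalings and filters, thinning, a replicate block and each left-out library were alternatives. The comparison, the 40 gene lists and the tests were chosen with earlier results of these data known. The text names the 15 largest rises and falls and the 10 smallest p-values among genes of at least 5 CPM whose groups do not overlap, the called members of the lists and up to 6 genes in each direction of the interaction, 184 genes in all, of which the largest changes are given in part. Members that did not pass, p53 targets, zinc finger genes and other name families were named after their values were seen. Tested on simulated data, the LIF comparison recovered 54% of 2-fold and 93% of 4-fold changes, with 11 false calls among 158 (12806 genes, 200 changed). Replicate numbers did not pair KI with WT libraries. Some members counted in the lists are not reported here by name.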

Additional observations from a re-analysis of the deposited data

Results flagged for a closer look

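The difference between KI and WT in LIF was itself different from that in LIF/2i by edgeR's interaction test for 43 genes, of which the 20 named by rule are given here. Each value is the log2 fold change of KI over WT in LIF minus that in LIF/2i, with SE and edgeR adjusted p.

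Of these genes 14 had a negative value. They were Gsto1, a glutathione transferase (−1.47, SE 0.17, adjusted p = 0.007), Psat1 (−1.45, SE 0.20, adjusted p = 0.0081), Asns (−1.84, SE 0.27, adjusted p = 0.012), Nars (−1.09, SE 0.16, adjusted p = 0.012), Cars (−1.19, SE 0.18, adjusted p = 0.012) and Aars (−1.04, SE 0.17, adjusted p = 0.02). Eras, a Ras-like GTPase of stem cells, was at −1.93 (SE 0.25, adjusted p = 0.0076), the chloride transporter Clcn5 at −1.82 (SE 0.25, adjusted p = 0.0081), Ptges at −1.96 (SE 0.29, adjusted p = 0.012), Rhox9 at −3.09 (SE 0.54, adjusted p = 0.027) and Amotl2 at −1.63 (SE 0.29, adjusted p = 0.028). With the replicate number within genotype as a block Amotl2 did not pass (adjusted p = 0.0527). Eras was at 86.2, 80.3 and 80.4 CPM in WT and 88.01, 95.2 and 92.1 CPM in KI in LIF (0.16, adjusted p = 0.54) and at 2.09 in LIF/2i.

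Rplp0, a protein of the ribosomal stalk (−2.06, SE 0.25, adjusted p = 0.0076), Eif4a3, a helicase of the exon junction complex (−2.04, SE 0.27, adjusted p = 0.0081), and Actb (−1.0, SE 0.15, adjusted p = 0.012) have close relatives or processed copies, so their counts are uncertain. In LIF Rplp0 was at −1.28 with MNase and 0.12 with RNase I, and Eif4a3 at −0.77 and −0.06.

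The other 6 had a positive value. Sox3 (2.50, SE 0.39, adjusted p = 0.014), Lef1 (2.65, SE 0.42, adjusted p = 0.015) and Zfhx3, a zinc finger homeobox factor (1.05, SE 0.18, adjusted p = 0.026), are transcription factors. Zfhx3 was at 0.02 in LIF and −1.03 in LIF/2i. H2ac18, a replication-dependent histone with near-identical copies, was at 2.52 (SE 0.41, adjusted p = 0.018), and mt-Co3 and mt-Co2, mitochondrially encoded, at 2.66 (SE 0.34, adjusted p = 0.0076) and 2.81 (SE 0.44, adjusted p = 0.014). In LIF both mitochondrial genes were lower in KI (−1.07 and −1.13), so their positive values mean lower values still in LIF/2i.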

How the results depend on the processing

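The number of genes that differed between KI and WT in LIF was 1738. It was 1714 with the LIF libraries alone, 1736 with RLE factors, 1498 without the filter, 1724 with the stricter filter, 1341 after thinning, 1683 with limma-voom, 2156 with DESeq2 and 1889 with the replicate block (991 higher and 898 lower). Library totals alone gave 1727, of which 48.5% were higher, against 55.2% with TMM. Leaving out a library gave 722 to 1981, and KI 1 left out in both media gave 3404. In each of these settings every gene of the 1738 that was tested kept its direction. Of 179 called genes that the text draws on 81 passed in all 6 fits that left out a library and 98 lost the call in at least 1. With the replicate block 175 passed, with DESeq2 176 and with the LIF libraries alone 156.

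The interaction count was 43. It was 215 with DESeq2, 55 with the replicate block, 273 with the replicate block within genotype and 483 with KI 1 left out in both media. Without a single library it ranged from 10 to 98. Zfhx3 in LIF, at 0.02 and not called, was at −0.017 with library totals alone and between −0.049 without WT replicate 3 and 0.128 without WT replicate 2 when a library was left out, with −0.023 without KI replicate 3. Same-numbered KI and WT libraries in LIF did not deviate together, with correlations over genes of −0.017, −0.002 and −0.073, so the block was not used as the main result.

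Direction with RNase I was shared by 93.6% of called genes, and by 93.7% of 1573 with at least 5 CPM with both nucleases. Depth limits low genes, since the smallest WT library holds 2127850 counts and every KI library is deeper than every WT library.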

Other observations

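Families sharing the start of a symbol, grouped after the values were seen, held further genes that changed. Of 35 DEAD-box helicases (Ddx) 11 rose and 0 fell, with a median of 0.30, and 6 to 11 rose over the fits that left out a library. Of 21 nucleoporins (Nup), which form the nuclear pore, 9 rose and 2 fell, with a median of 0.36 with MNase and 0.06 with RNase I. That count was 5 without WT replicate 1, WT replicate 2 or KI replicate 3. Of 27 RNA polymerase genes (Polr) 6 rose and 0 fell, with 4 to 6 over those fits and 4 without WT replicate 1, WT replicate 2 or KI replicate 3. Nup43 was at 118, 106 and 145 CPM in WT and 205, 179 and 209 CPM in KI, without overlap, while its RNase I value was 0.01.

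Nuclear-encoded cytochrome oxidase genes (Cox), whose products are imported into mitochondria, had 0 of 26 higher and 8 lower, with a median of −0.46 in LIF, −0.17 with RNase I and 0.05 in LIF/2i. The number that fell was 3 without WT replicate 1, WT replicate 3 or KI replicate 3, and 9 without KI replicate 1. They were Cox5a, Cox6c, Cox7b, Cox17, Cox14, Cox6a1, Cox4i1 and Cox8a, and 7 of these 8 were lower with RNase I too.

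Other gene lists had 0 to 4 members that passed. Of 17 mitochondrial tRNA synthetases 2 rose, among them Yars2 (0.62, adjusted p = 0.02), whose call was lost on leaving out WT 1, WT 3 or KI 3 (adjusted p up to 0.08). Of 18 glutathione and NRF2 genes Srxn1 (−0.77), Txn1 (−0.38) and Fth1 fell, and 0 fell without WT replicate 1. Txn1 lost its call on leaving out any single library (adjusted p up to 0.15) and Srxn1 on leaving out WT 1, WT 3 or KI 3 (adjusted p up to 0.097), and Txn1, like Fth1, had the opposite sign with RNase I (0.10). Of 19 zinc transporter and metallothionein genes 3 rose, Slc39a14 (0.82), Slc39a6 (0.56) and Slc30a6 (0.60), and Slc39a1 fell (−0.83). Without WT replicate 1 or KI replicate 3 none of these 4 passed. Of 24 cholesterol genes Pmvk (−1.34) and Tm7sf2 (−0.65) fell and 2 rose, among them Hmgcs1 (0.42, RNase I −0.18). Tm7sf2 did not pass on leaving out any single library except KI 1 (adjusted p up to 0.17), nor Hmgcs1 on leaving out any single library except WT 2 or KI 1 (adjusted p up to 0.11).

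Of 23 glycolysis genes the enolase Eno1 fell (−1.78, adjusted p = 0.006, RNase I −0.45) and the lactate carrier Slc16a1 rose (0.59, adjusted p = 0.028, RNase I −0.03), the latter a call lost on leaving out any single library except WT 2 or KI 1 (adjusted p up to 0.11). Of 16 DNA methylation genes Dnmt3a rose and Mbd2 fell (−0.62, adjusted p = 0.034), and of 20 germline genes Tex101 fell (−1.72, adjusted p = 0.015), a call lost on leaving out WT 1, WT 3 or KI 3 (adjusted p up to 0.09). Of 21 axon guidance genes Ntn1 and Epha2 (0.79, adjusted p = 0.047) rose and Sema5a fell. Epha2 lost its call on leaving out any single library except KI 2 or KI 3 (adjusted p up to 0.14), was at 0.33 without KI replicate 1, and did not pass with the replicate block (adjusted p = 0.0577) or with the LIF libraries alone (adjusted p = 0.103). Of 32 lysosome and autophagy genes Tfe3 rose (0.61, adjusted p = 0.017), and Ulk1 (−0.68, adjusted p = 0.032) and Grn (−0.52, adjusted p = 0.017) fell. For the methylation and lysosome lists 0 members passed without WT replicate 1, WT replicate 3 or KI replicate 3. Of 19 imprinted genes 0 passed with edgeR or DESeq2, with 3 higher and 2 lower at an unadjusted p under 0.05.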
